A study of Mus musculus with 48 samples.

Results

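The mitochondrial ribosomal protein genes were taken as the rows of the expression table named Mrpl or Mrps followed by a number, without pseudogene rows, at a mean of at least 1 FPKM (fragments counted per kilobase of transcript and scaled to the library's total) over all 12 mice. The name pattern found 81 rows, of which 4 were pseudogenes, and 0 of the rest fell below 1 FPKM, so 77 genes formed the set, out of 13590 genes tested and 29801 in the table. By name, 48 belonged to the large subunit (Mrpl) and 29 to the small subunit (Mrps). Because the filter on low values removed no member, the set is complete for this name pattern.

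The RNA came from the whole tibia, marrow included, of male C57Bl6J mice in 4 groups of 3. Young mice are given as 10 weeks of age and aged mice as 15 to 18 months. By the study's methods, these ages fall within those at the start of the diets. The tibiae were taken at the end of the diets, 8 weeks later. Mice were fed NIH-31 ad libitum (AL) or were on calorie restriction (CR) with a micronutrient-enriched NIH-31/NIA diet for 8 weeks. Restriction was 10% in the first week, 20% in the second and 40% from week 3. The diets thus differed in formula as well as in amount. The mice were AL 9, 10 and 11 and CR 1, 2 and 3 among the young, and AL 13, 14 and 15 and CR 5, 6 and 7 among the aged. The labels list 4 technical repeats a mouse, and the table holds 1 column a mouse, so every n here is 3 mice.

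The mitochondrial ribosome is built of a large and a small subunit that assemble around ribosomal RNAs encoded by mitochondrial DNA. All of its proteins are encoded in the nucleus, made in the cytosol and imported, and the finished particle translates the few respiratory chain and ATP synthase subunits that mitochondrial DNA encodes. Part of its proteins have bacterial counterparts, and others were acquired in mitochondria. Nuclear respiratory factor 1 (NRF1) and the ETS factor GABP are known activators of many nuclear genes for mitochondrial proteins. Whole bone holds marrow cells, bone cells, fat and residual muscle, and in such bulk RNA fewer cells of a type and less RNA per cell cannot be told apart.

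The 77 genes lay on 17 chromosomes, and all were found under the same name in GENCODE M21 (GRCm38). A protein-coding gene started within 1000 bp on the opposite strand, pointing away, beside 18 of them (23.4%), against 10.6% of the 11514 tested protein-coding genes. Mrps12, the counterpart of a bacterial protein of the decoding centre, is paired in this way with Sars2, the mitochondrial seryl-tRNA synthetase, at 172 bp, and Mrpl49 with Fau, a cytosolic ribosomal protein gene, at 59 bp. Mrpl46 and Mrps11 overlapped on opposite strands of chromosome 7. Exon bases were shared with another gene on the same strand by 8 members and on the other strand by 27, and values of such members are uncertain where reads could be split.

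RefSeq promoters (GRCm38.p6) were at hand for 68 of the 77 genes, 74 promoters in all, and 3 motifs were searched on both strands of the 250 bases before the start. A gene was counted if any of its promoters held the letters. The NRF1 letters, which run GCGCA, any base, GCGC, stood in 10 of 68 genes (14.7%), against 9.37% of the 9146 tested genes with a promoter and 4.23% of all 27025 genes. The large subunit held 9 of these among 42 genes (21.4%) and the small subunit 1 among 26 (3.85%). The ETS letters CCGGAAGT also stood in 10 of 68 genes (14.7%), against 6.75% of tested and 3.23% of all genes, and no member had both motifs in this window. The TATA box letters TATAAA were in 5 of 68 genes (7.35%), against 7.98% of tested and 14.3% of all genes. These matches are descriptions of letters, not of bound sites.

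The 5 promoters below are examples of genes whose values are described further on and which carry 1 of the motifs, in capitals. They were picked after the values were seen, and Mrpl30, Mrps21, Mrps18c and Mrpl48, also described, carry a motif and are not shown. The NRF1 letters lie 71, 39 and 25 bases before the start of Mrpl12, Mrpl17 and Mrpl44, and read on the other strand in Mrpl12. The ETS letters lie 41 and 7 bases before the start of Mrps27 and Mrps26, on the other strand in both.
Mrpl12, chr11:120484387-120484636, plus strand: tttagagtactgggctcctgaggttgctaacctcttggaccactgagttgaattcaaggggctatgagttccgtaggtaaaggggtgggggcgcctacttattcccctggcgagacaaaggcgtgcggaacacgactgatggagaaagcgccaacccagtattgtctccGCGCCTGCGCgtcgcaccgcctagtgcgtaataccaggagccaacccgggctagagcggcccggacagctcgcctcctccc
Mrpl17, chr7:105811088-105811337, minus strand: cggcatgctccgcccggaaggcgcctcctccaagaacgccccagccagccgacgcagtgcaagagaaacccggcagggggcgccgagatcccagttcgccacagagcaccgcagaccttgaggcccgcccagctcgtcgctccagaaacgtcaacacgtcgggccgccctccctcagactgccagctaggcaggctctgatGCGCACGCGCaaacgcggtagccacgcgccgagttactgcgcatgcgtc
Mrpl44, chr1:79775768-79776017, plus strand: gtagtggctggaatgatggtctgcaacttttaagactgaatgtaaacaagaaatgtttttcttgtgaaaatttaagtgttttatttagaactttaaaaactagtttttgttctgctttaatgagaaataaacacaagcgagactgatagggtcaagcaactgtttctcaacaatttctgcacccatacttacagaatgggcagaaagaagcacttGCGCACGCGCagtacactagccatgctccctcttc
Mrps27, chr13:99344536-99344785, plus strand: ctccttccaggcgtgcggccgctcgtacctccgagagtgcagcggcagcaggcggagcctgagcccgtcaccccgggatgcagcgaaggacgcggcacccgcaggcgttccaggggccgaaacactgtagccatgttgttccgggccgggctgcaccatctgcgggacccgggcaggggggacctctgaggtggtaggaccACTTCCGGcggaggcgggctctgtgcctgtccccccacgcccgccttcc
Mrps26, chr2:130563507-130563756, plus strand: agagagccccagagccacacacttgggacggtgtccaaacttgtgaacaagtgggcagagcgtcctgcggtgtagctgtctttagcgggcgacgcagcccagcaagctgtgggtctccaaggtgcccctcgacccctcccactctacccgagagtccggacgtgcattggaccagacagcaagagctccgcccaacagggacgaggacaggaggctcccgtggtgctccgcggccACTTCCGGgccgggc
Mrpl12 corresponds to the bacterial stalk protein L7/L12, Mrpl17 to bacterial L17, Mrpl44 has a ribonuclease III fold, and Mrps27 and Mrps26 are small subunit proteins without a bacterial counterpart.

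The members were moderately expressed in whole tibia. Their mean level per gene ranged from 4.21 FPKM for Mrps35 to 96.3 FPKM for Mrpl33, a 22.9-fold span, with a median of 18.8 FPKM (19.1 for the large and 17.1 for the small subunit) against 8.25 FPKM over all tested genes and 239 FPKM over the cytosolic ribosomal protein genes. The level of 66 of the 77 was above the median of tested genes. In the large subunit, Mrpl33 (96.3 FPKM), Mrpl52 (74.4), Mrpl20 (69.9) and Mrpl30 (59.1) had the highest levels, and Mrpl1 (4.88), Mrpl19 (5.35) and Mrpl47 (5.41) the lowest. In the small subunit, Mrps21 (69.4), Mrps18c (58.7) and Mrps16 (53.6) led, followed by Mrps15 (33.0), and Mrps35 (4.21), Mrps5 (5.16) and Mrps2 (6.32) were lowest. The 3 related genes Mrps18a, Mrps18b and Mrps18c had mean levels of 22.6, 13.02 and 58.7 FPKM.

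**Figure D1:**
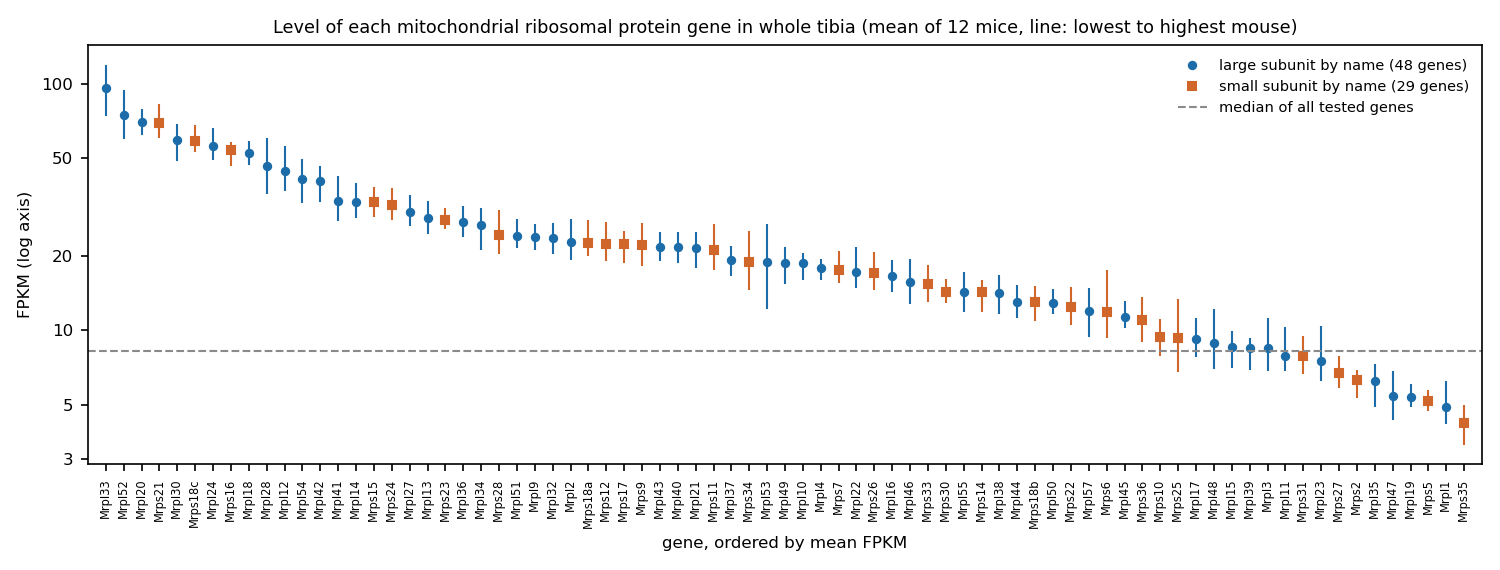
Mean FPKM over 12 mice of each of the 77 genes on a log axis, ordered by level, with a line from the lowest to the highest mouse; large subunit genes are blue circles and small subunit genes orange squares, and the dashed line is the median of all tested genes, 8.25 FPKM. Genes of both subunits are spread over the whole range, and the spread between mice is small beside the spread between genes.

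Between mice the members varied little. The SD of log2(FPKM + 1) over the 12 mice had a median of 0.140 among members and 0.160 among tested genes, and the highest mouse exceeded the lowest by 1.22-fold to 2.23-fold, with a median of 1.41-fold. The widest range was that of Mrpl53, a large subunit protein specific to mitochondria.

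The members moved together from mouse to mouse. Each gene was set against its own mean over the 12 mice, and the deviations on the log2 scale were averaged over the 77 genes. The mean deviation was -0.054, 0.040 and 0.043 in young AL mice 9, 10 and 11, and 0.168, 0.189 and -0.065 in young CR mice 1, 2 and 3. It was -0.100, -0.036 and -0.082 in aged AL mice 13, 14 and 15, and 0.047, -0.067 and -0.085 in aged CR mice 5, 6 and 7. Young CR mice 1 and 2 stood above all others, while young CR mouse 3 lay below every young AL mouse, so that the young diet groups overlapped. In young CR mice 1 and 2, 74 of 77 members were above their own mean, and in young CR mouse 3 only 20 were. The summed level of the members ran from 1684 FPKM in aged AL mouse 13 to 2089 FPKM in young CR mouse 2, which is 0.265% to 0.328% of all FPKM in a mouse.

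The large and the small subunit followed the same course. In young CR mouse 2 the mean deviation was 0.186 for the large and 0.194 for the small subunit, and in aged AL mouse 13 it was -0.102 and -0.096. The difference between the subunits was at most 0.040 in any mouse, in young AL mouse 9, and was under 0.010 in 6 of the 12. Mrps18a and Mrps30 sit in the large subunit by structure, and Mrps36 is now counted with the 2-oxoglutarate dehydrogenase complex, and grouping by structure (50 large, 26 small) gave the same picture. In aged CR mouse 5, for example, the 2 values were then 0.053 and 0.048. The 47 members with a bacterial counterpart and the 30 specific to mitochondria also went together, at 0.192 and 0.185 in young CR mouse 2.

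**Figure D2:**
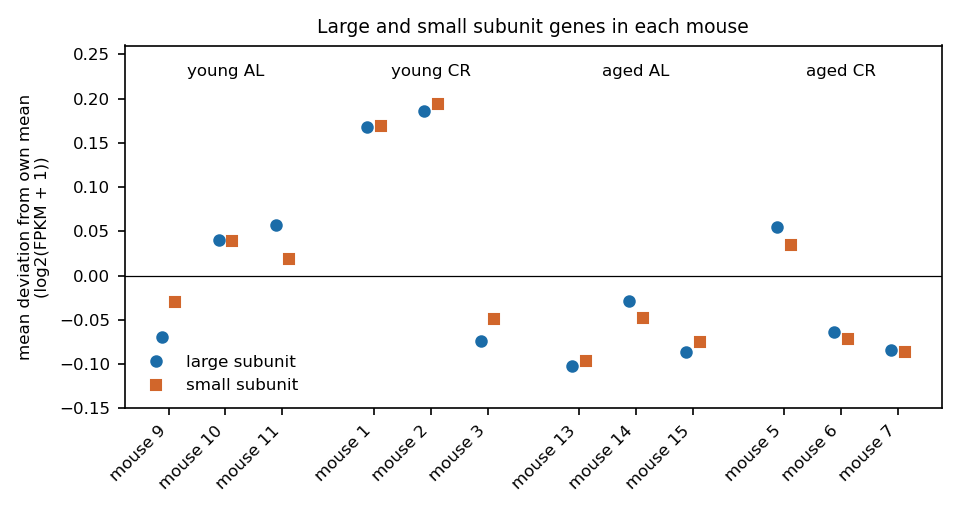
Mean deviation of log2(FPKM + 1) from each gene's 12-mouse mean, averaged over the 48 large subunit genes (blue circles) and the 29 small subunit genes (orange squares), for each mouse by group. The 2 symbols lie within 0.040 of each other in every mouse, young CR mice 1 and 2 are highest at 0.168 to 0.194, and young CR mouse 3 lies below 0.

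The same mice stood out in other gene groups. Among the 36 nuclear subunits of respiratory complex I, the mean deviation was 0.181, 0.202 and -0.097 in young CR mice 1, 2 and 3, and among the 76 cytosolic ribosomal protein genes it was 0.134, 0.179 and -0.010. The subunits of complexes III and IV and of the ATP synthase had 0.136 to 0.195 in young CR mice 1 and 2 and -0.069 to -0.063 in mouse 3. The 4 subunits of complex II, the complex without mitochondrially encoded subunits, were at 0.043, 0.051 and -0.008, and aged AL mouse 14 was highest there at 0.073. The 7 mitoribosomal proteins that carry other names (Dap3, Ptcd3, Chchd1, Aurkaip1, Gadd45gip1, Ict1 and Oxa1l, the last an insertase that binds the ribosome) had 0.092, 0.157 and -0.031. One by one, however, 3 of these 7 had a higher and 4 a lower mean with CR in young mice (median log2 fold change -0.03), with Gadd45gip1 (0.28) and Ict1 (0.33) higher and Ptcd3 (-0.22) lower at an unadjusted p under 0.05 and limma adjusted p of 0.365 to 0.415. Among the factors that serve the particle, the 23 genes for ribosome assembly and rRNA modification were at 0.062, 0.075 and -0.045, again high in mice 1 and 2 and low in mouse 3. The 12 translation factors were at 0.119, 0.040 and 0.022 and the 18 genes for mitochondrial transcription and RNA processing at 0.043, 0.10 and -0.026. The 20 genes for mitochondrial tRNA charging, at -0.051, 0.028 and 0.007, did not have the pattern.

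Transcript length moved with this pattern. Members are short, with a median of 1047 bases against 2057 over tested genes with a length. Tested genes with a length, other than members and cytosolic ribosomal, respiratory and ATP synthase genes, were divided by transcript length into 5 groups of about equal size. The group of shortest transcripts (median 766 bases) had mean deviations of 0.057, 0.054 and -0.034 in young CR mice 1, 2 and 3, while the longest (median 4694 bases) had -0.067, -0.070 and 0.052. Mice 1 and 2 were thus high and mouse 3 low among short transcripts too, with smaller values than among the members, and the part of length in the members' values was not tested. In aged AL mouse 14 the shortest group was at -0.080 and the longest at 0.079, while the members were at -0.036.

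**Figure D3:**
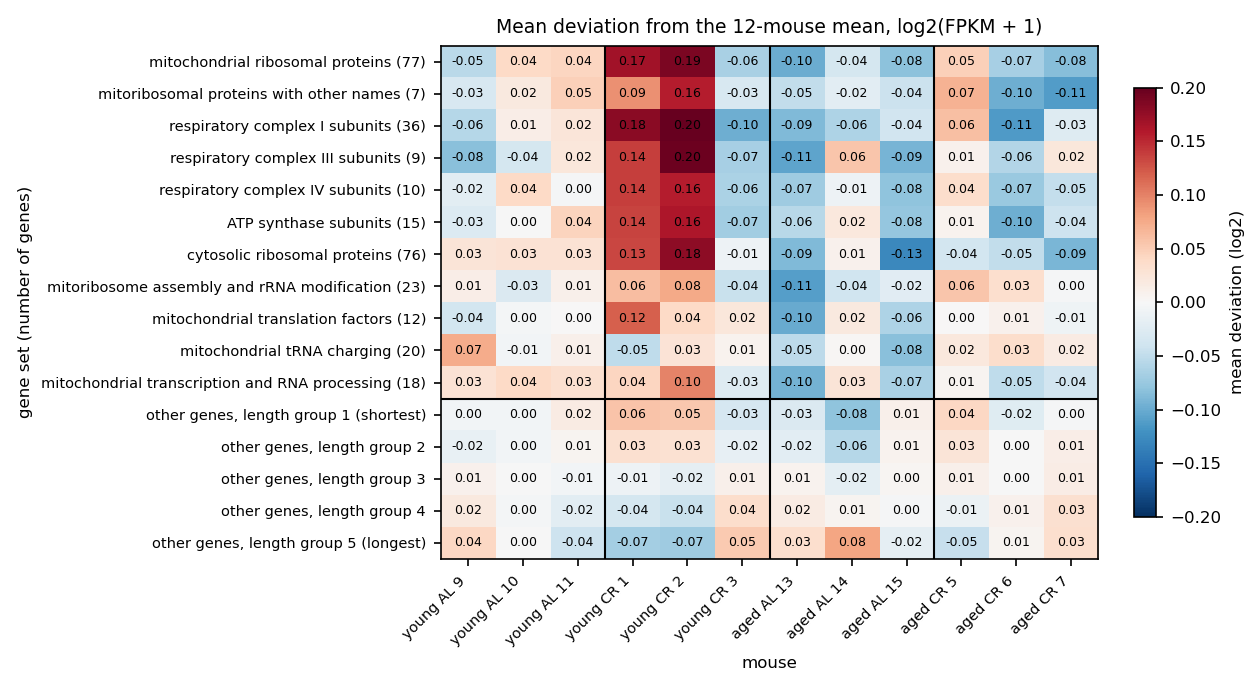
Mean deviation from the 12-mouse mean on the log2(FPKM + 1) scale, per mouse (columns, by group) and gene set (rows, number of genes in brackets), printed in each cell and coloured from blue (lower) to red (higher). The lower 5 rows are tested genes with a transcript length, in 5 groups from shortest to longest. Members and cytosolic ribosomal, respiratory and ATP synthase genes are left out of these groups, and genes of the other upper rows are not. Genes for mitochondrial and cytosolic ribosomal proteins, for complexes I, III and IV and for the ATP synthase are highest in young CR mice 1 and 2, and below 0 in young CR mouse 3.

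The first comparison asked how CR acted in young mice. Of the 77 members, 63 had a higher mean with CR and 14 a lower one, with a median log2 fold change of 0.10 (0.09 for the large and 0.12 for the small subunit) against 0.01 over all tested genes. No member passed the test: limma with Benjamini-Hochberg adjustment over 13590 genes called 0 of 77 at an adjusted p under 0.05, where 0.0662% of tested genes were called. At an unadjusted p under 0.05, 5 members were higher (6.49%, background 5.79%) and 0 lower (background 5.24%). The CR mice were all above the AL mice for 7 members (9.09%, background 10.1%) and all below for 1 (1.30%, background 9.38%). Counts in the higher direction were thus near the background, and those in the lower direction were below it. Without young CR mouse 3 the median was 0.17 and 21 members had an unadjusted p under 0.05 in the higher direction, against 1045 of 13603 tested genes. In the main fit the latter count was 787 of 13590. The median was 0.046 with 2 such members when young CR mouse 2 was left out (486 tested genes). It was 0.053 with 3 when young AL mouse 9 was left out (472), and 0.058 with 3 without young CR mouse 1 (528). Leaving out aged AL mouse 13, aged AL mouse 15 or aged CR mouse 6, which enter through the shared spread, also gave 3 such members, with 737, 817 and 729 tested genes.

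Mrps6, the counterpart of bacterial S6 in the small subunit, had the largest difference in young mice. Its level was 11.1, 10.2 and 9.97 FPKM in young AL mice 9, 10 and 11 and 15.1, 17.6 and 12.4 FPKM in young CR mice 1, 2 and 3. All 3 CR mice were above all AL mice, with mouse 3 nearest to them. The log2 fold change was 0.47 (SE 0.12, limma adjusted p = 0.187), and leaving out 1 mouse at a time gave 0.36 to 0.60. Mrps6 lies on chromosome 16 (92058270 to 92112227, plus strand, GRCm38) and shares exon bases on the same strand with Slc5a3, the myo-inositol transporter gene, which itself was at 1.09 FPKM with a log2 fold change of 0.21 (adjusted p = 0.487), and with the gene model Gm49711, which was not analysed here. How reads of this locus were divided was not tested.

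Mrpl38, a large subunit protein specific to mitochondria, differed by less but with closely spaced values. Its level was 12.1, 12.3 and 13.9 FPKM in the young AL mice and 15.6, 15.5 and 15.8 FPKM in the young CR mice 1, 2 and 3. The CR values lay close together, mouse 3 included, and above all AL values. The log2 fold change was 0.28 (SE 0.09, limma adjusted p = 0.289). Mrpl38 is thus one of the members in which young CR mouse 3 did not stand below the AL mice.

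Mrpl17, whose promoter is shown above, was at 8.35, 8.17 and 8.19 FPKM with AL and 10.2, 11.2 and 9.66 FPKM with CR in the young (log2 fold change 0.30, SE 0.11, limma adjusted p = 0.366), again without overlap. Mrpl22, which lines the peptide exit tunnel, was at 16.6, 17.3 and 16.1 FPKM with AL and 21.7, 19.6 and 17.03 FPKM with CR, where mouse 3 lay among the AL mice. Mrps7, a small subunit protein with a bacterial counterpart, had a log2 fold change of 0.19 (SE 0.09) without overlap. The lowest values of the set with CR were those of Mrps9 and Mrps26, both at -0.20, and of Mrpl24 at -0.16, with limma adjusted p of 0.508 to 0.531. Mrpl24, counterpart of bacterial L24, was the member that lay lower in all CR mice, at 66.1, 56.0 and 59.8 FPKM with AL and 52.9, 55.6 and 53.2 FPKM with CR.

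Some genes with a special place in the particle showed the pattern of the set. Mrpl12 was at 40.8, 44.2 and 44.3 FPKM with AL and 51.4, 56.2 and 40.1 FPKM with CR in young mice, high in mice 1 and 2 and lowest of the 6 in mouse 3. Mrps12 was at 23.8, 22.3 and 21.7 FPKM with AL and 24.8, 27.5 and 21.9 FPKM with CR, and Mrpl44 at 12.4, 12.7 and 13.03 FPKM with AL and 15.2, 14.9 and 12.9 FPKM with CR. In all 3 genes, mouse 3 lay within or below the AL range. Mrps5, the counterpart of bacterial S5, had a log2 fold change of 0.07 in young and -0.07 in aged mice, with SE 0.08 in both. Mrpl58 is listed under its older name Ict1, a peptidyl-tRNA hydrolase of the large subunit, at a mean of 16.7 FPKM and a log2 fold change of 0.33 in young mice (limma adjusted p = 0.415).

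In aged mice CR gave no common direction. Of the 77 members 46 had a higher mean with CR and 31 a lower one, with a median log2 fold change of 0.02 (0.03 for the large and 0.02 for the small subunit) against -0.004 over all tested genes. limma called 0 of 77 after adjustment, with a background of 0%, and at an unadjusted p under 0.05 it gave 4 higher (5.19%, background 4.5%) and 1 lower (1.30%, background 3.22%). The groups did not overlap for 7 members higher with CR (9.09%, background 5.7%) and 3 lower (3.90%, background 5.33%). Without aged CR mouse 5, which of the aged CR mice differed most from its group over all genes, the median was -0.03 and 36 members had a higher mean. Of these, 0 had an unadjusted p under 0.05, against 681 of 13600 tested genes. Without aged AL mouse 14 that count was 7, against 564 of 13588 tested genes, and the median was 0.05.

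Mrps6 and Mrpl38 again were higher with CR without overlap, as in the young mice. Mrps6 was at 9.35, 9.53 and 10.0 FPKM in aged AL mice 13, 14 and 15 and at 13.6, 11.9 and 11.1 FPKM in aged CR mice 5, 6 and 7, a log2 fold change of 0.31 (SE 0.12, limma adjusted p = 0.582). Mrpl38 was at 13.7, 13.2 and 11.6 FPKM with AL and at 16.7, 14.03 and 15.6 FPKM with CR, a log2 fold change of 0.25 (SE 0.09, limma adjusted p = 0.545).

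Mrpl53 had the largest difference in the aged, at 14.2, 12.2 and 14.2 FPKM with AL and 27.1, 16.9 and 17.7 FPKM with CR. Mouse 5 was far above the other 2 CR mice, and all 3 were above the AL mice. The log2 fold change was 0.54 (SE 0.20, limma adjusted p = 0.575), and without aged CR mouse 5 it was 0.33. In young mice the gene was at 20.7, 20.2 and 19.5 FPKM with AL and 24.8, 24.6 and 14.9 FPKM with CR. Mrpl53 shares exon bases on the same strand with the gene model Gm42688, which was not analysed here.

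Mrpl41, a large subunit protein specific to mitochondria, was close together within each aged group, at 27.8, 28.0 and 28.6 FPKM with AL and 33.4, 34.0 and 33.1 FPKM with CR, with no overlap. Its log2 fold change was 0.24 (SE 0.10, limma adjusted p = 0.598). Mrpl21, counterpart of bacterial L21, was lower with CR in all aged mice, at 22.3, 23.2 and 21.4 FPKM with AL and 20.1, 19.6 and 17.9 FPKM with CR (log2 fold change -0.21, SE 0.09). Mrps17, Mrps27 and Mrps30 had -0.17, 0.14 and 0.10, with limma adjusted p of 0.735 to 0.765.

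**Figure D4:**
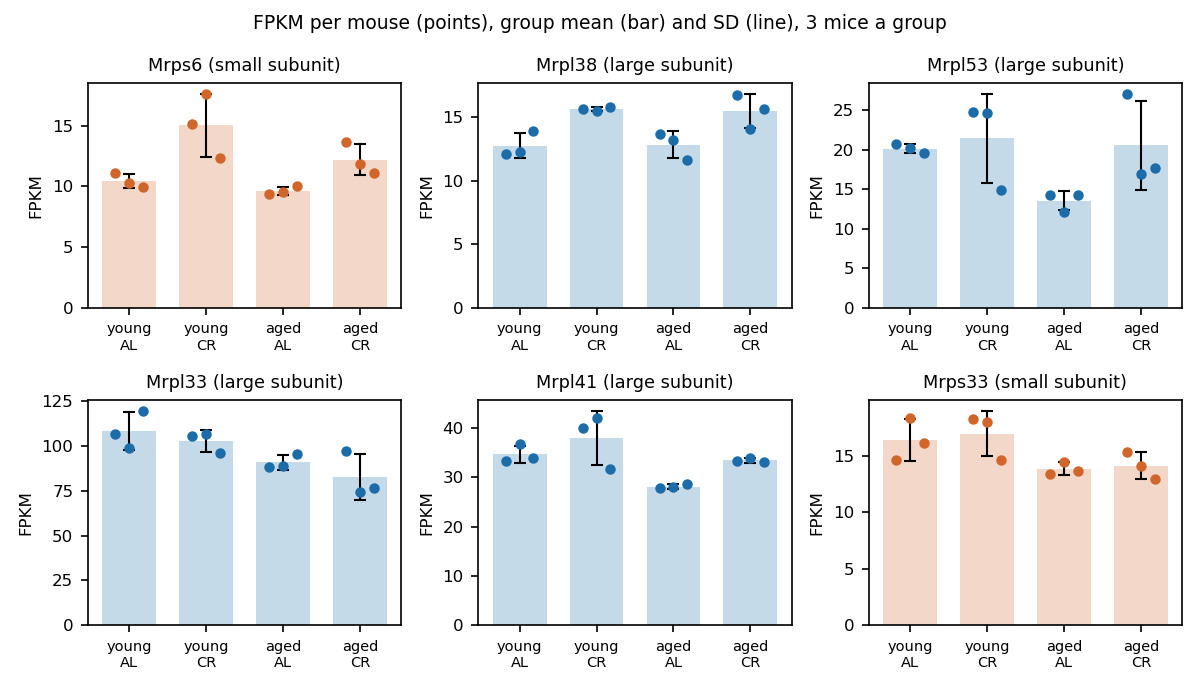
FPKM per mouse (points), group mean (bars from 0) and SD (lines, n = 3) of 6 members in the 4 groups. Mrps6 and Mrpl38 are higher in every CR mouse than in every AL mouse of the same age, Mrpl53 reaches 27.1 FPKM in 1 aged CR mouse, and Mrpl33, Mrpl41 and Mrps33 have lower means in aged AL than in young AL mice.

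Over both ages, 60 members had a higher and 17 a lower mean with CR, with a median log2 fold change of 0.06 against 0.00 over all tested genes. limma called 0 of 77 (background 0.258%), with 7 higher (9.09%, background 7.42%) and 0 lower (background 6.45%) at an unadjusted p under 0.05. The median ran from 0.03 without young AL mouse 9 to 0.09 without young CR mouse 3. The count of 7 was 20 without young CR mouse 3 and 3 without young CR mouse 2, where 1186 and 740 tested genes were higher by this rule. It was 4 without young AL mouse 9 or 10, aged AL mouse 15 or aged CR mouse 5, with 861, 876, 1039 and 1061 tested genes. In the main fit the latter number was 1008 of 13590. Mrps6 came nearest to the threshold, at 0.39 (SE 0.08, limma adjusted p = 0.0740), and was the member called in this comparison without young CR mouse 3 (adjusted p = 0.0489). Mrpl38 followed at 0.26 (SE 0.06, limma adjusted p = 0.0965). Mrpl17 (0.22), Mrpl41 (0.18), Mrpl40 (0.18), Mrps7 (0.15), Mrps18b (0.15) and Mrps27 (0.14) had limma adjusted p of 0.241 to 0.400.

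Age was compared over both diets. Of the 77 members 73 had a lower mean in aged than in young mice and 4 a higher one, with a median log2 fold change of -0.10 (-0.10 for the large and -0.11 for the small subunit) against -0.02 over all tested genes. limma called 0 of 77 after adjustment (background 0.758%). At an unadjusted p under 0.05, 15 members were lower (19.5%, background 9.76%) and 0 higher (background 6.8%). The aged mice were below the young mice within both diets for 0 of 77 members (background 1.7%). Within AL mice 61 members had a lower mean in the aged, with a median difference of -0.06, and within CR mice 71, with -0.13, so the young CR mice enter both this comparison and that of diet in young mice. Without young CR mouse 3 the count of 15 was 35, and 3 members were called after adjustment. In that fit 1633 of 13603 tested genes were lower by this rule and 221 were called, against 1326 and 103 of 13590 in the main fit. The count was 5 without young CR mouse 2, young AL mouse 10 or aged CR mouse 7, with 961, 984 and 925 tested genes. It was 7 without young CR mouse 1 (922 tested genes) and 8 without aged AL mouse 13 (1323).

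Mrpl33, the member with the highest level and a counterpart of bacterial L33, had the smallest p for age. It was at 107, 98.8 and 119.6 FPKM in young AL and 106, 107 and 96.0 FPKM in young CR mice, and at 88.4, 88.7 and 95.8 FPKM in aged AL and 97.4, 74.1 and 76.7 FPKM in aged CR mice. Aged CR mouse 5 lay above young CR mouse 3, and all other aged mice were below all young mice. The gene model Gm43809, with which Mrpl33 shares exon bases on the same strand, was at 0.439 FPKM. The log2 fold change was -0.28 (SE 0.08, limma adjusted p = 0.125). When the mice that differed most from their groups over all genes, 14 (aged AL) and 5 (aged CR), were left out, it was -0.34 (limma adjusted p = 0.0461). That fit was chosen after seeing the data.

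Mrpl41 was at 33.4, 36.7 and 33.9 FPKM in young AL and 40.0, 42.2 and 31.7 FPKM in young CR mice, against the aged values given above. Its aged AL mice lay below all young mice, whereas its aged CR mice lay between the young values, and the log2 fold change for age was -0.23 (SE 0.07, limma adjusted p = 0.149). Mrps33, a small subunit protein specific to mitochondria, was at 14.7, 18.4 and 16.1 FPKM in young AL and 18.3, 18.0 and 14.7 FPKM in young CR mice, and at 13.4, 14.5 and 13.7 FPKM in aged AL and 15.4, 14.1 and 13.01 FPKM in aged CR mice. All aged AL mice were below all young AL mice, aged CR mouse 5 was above young CR mouse 3, and the log2 fold change was -0.23 (SE 0.08, limma adjusted p = 0.171). Mrpl23, at the exit of the peptide tunnel, had -0.25, Mrps28 -0.23, Mrpl49 -0.17, Mrps31 -0.16 and Mrps30 -0.12, with limma adjusted p of 0.198 to 0.261. Mrps36, the member that is now counted with another complex, had -0.23 (SE 0.10, limma adjusted p = 0.279). Mrpl23, Mrpl41 and Mrps28 were the members called without young CR mouse 3, with adjusted p of 0.0360 to 0.0475.

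The effect of CR did not differ detectably between the ages in any member. The difference of the 2 diet effects, aged minus young, was above 0 for 22 members and below 0 for 55, with a median of -0.08 against -0.01 over all tested genes. Without young CR mouse 2 the median was -0.02 with 43 members below 0, and without young CR mouse 3 it was -0.13 with 66 below. Leaving out young CR mouse 1, young AL mouse 9, aged AL mouse 14, aged CR mouse 6 or aged CR mouse 7 gave a median of -0.03 to -0.04. limma called 0 of 77 (background 0%), and at an unadjusted p under 0.05 it gave 1 higher (background 2.37%) and 0 lower (background 1.86%), with a smallest adjusted p of 0.999. Mrpl24 had the smallest p among the members, at 0.29 (SE 0.12), from -0.16 in young to 0.13 in aged mice. Mrps26 was at 0.30, Mrpl21 at -0.27 and Mrps21 at -0.22.

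**Figure D5:**
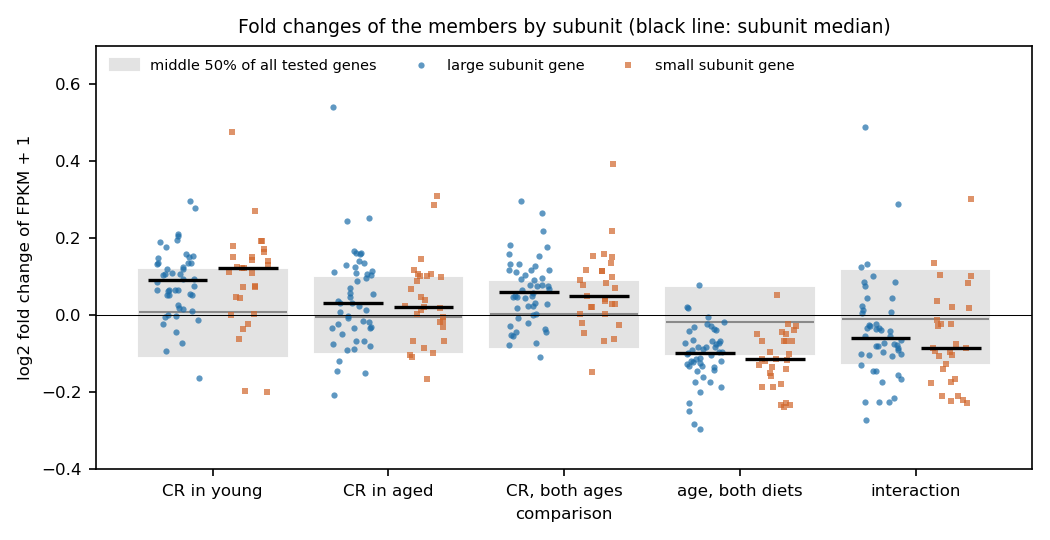
Log2 fold change of FPKM + 1 of each large (blue circles) and small (orange squares) subunit gene in the 5 comparisons, with the subunit median as a black line, and the median and middle 50% of all 13590 tested genes as grey line and box. Members lie mostly above 0 for CR in young mice (median 0.10) and mostly below 0 for age (median -0.10), and the medians of the subunits differ by 0.03 at most.

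Other mitochondrial genes were read from lists chosen by pathway, and limma called 0 members of each of these lists in all 5 comparisons. In young mice, 33 of 36 complex I subunits (median log2 fold change 0.09) and 65 of 76 cytosolic ribosomal protein genes (0.07) had a higher mean with CR, against 52.2% of tested genes. Both sets were also mostly lower in the aged, 30 of 36 (median -0.10) and 71 of 76 (median -0.14). Of all tested genes, 53.5% were lower in the aged within AL and 56.0% within CR. At an unadjusted p under 0.05, 38 of the 76 cytosolic genes were lower in the aged, against 15 of the 77 members and 9.76% of tested genes. Among the 12 translation factors, 7 were higher with CR in young mice (median 0.05), and the ribosome recycling factor Mrrf had 0.26 in young and 0.23 in aged mice (limma adjusted p = 0.370 and 0.611). Of the 23 assembly and rRNA modification genes, 20 had a higher mean with CR in the aged (median 0.07) and 12 in the young (median 0.02). The 20 tRNA charging genes had medians of -0.01 and 0.04, and the 18 genes for mitochondrial transcription and RNA processing -0.01 and 0.01, in young and aged mice.

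Among the regulators, NRF1 itself (gene Nrf1) was at a mean of 17.7 FPKM with log2 fold changes of 0.06 and 0.05 for CR in young and aged mice. Gabpa, a subunit of GABP, was at 8.64 FPKM with -0.03 and -0.23 (limma adjusted p = 0.953 and 0.638). The coactivator genes Ppargc1a and Ppargc1b were at 0.063 and 0.307 FPKM and were below the level tested.

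Some sets of cell type markers differed in level between diets or ages, as described here without a test. Markers within a set are not independent, so counts of them are not counts of separate observations. The summed level of 8 adipocyte markers was 351 to 385 FPKM with AL and 649 to 902 with CR in the young, and 335 to 661 with AL and 670 to 1188 with CR in the aged, so that it was higher with CR at both ages without overlap. The 9 B cell markers summed to 286 to 350 FPKM in young AL and 162 to 216 in young CR mice, and to 83.0 to 311 in aged AL and 137 to 161 in aged CR mice. The 12 skeletal muscle markers summed to 175 to 569 FPKM in young and 185 to 1287 in aged mice, with 12 of 12 at a higher mean in the aged (median log2 fold change 0.78). The 10 osteoblast and osteocyte markers all had a lower mean in the aged (median -0.35), as did 8 of 8 neutrophil markers (median -0.19). The osteoblast and osteocyte markers summed to 1666 to 2342 FPKM in young AL and 966 to 1438 in young CR mice, without overlap. Their sums were 521 (mouse 14) to 1913 (mouse 13) in aged AL and 882 to 1085 in aged CR mice. Neutrophil markers summed to 40654 to 45854 FPKM in the young and 28352 to 42312 in the aged. The 12 erythroid markers summed to 186462 to 187462 FPKM, a sum that is held nearly constant by quantile normalization because their main genes fill the top ranks, so that it says nothing of the erythroid share. The 7 osteoclast markers summed to 523 to 673 FPKM with AL and 699 to 836 with CR in the young, and to 490 to 617 with AL and 538 to 984 with CR in the aged, and the 9 cell division markers to 635 to 859 FPKM in all groups. Every marker was detected in at least 1 mouse, and the part of cell composition in the members' values was not tested.

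Young CR mouse 3, whose members were low, had adipocyte markers at a mean deviation of 0.131, against 0.596 and 0.697 in young CR mice 1 and 2, and muscle markers at -1.23, against -0.271 and 0.431. In young AL mice 9, 10 and 11 adipocyte markers were at -0.873, -0.886 and -0.744 and muscle markers at -0.489, -1.03 and -0.006. In aged AL mice 13, 14 and 15 adipocyte markers were at 0.055, -0.999 and -0.205 and muscle markers at -0.040, 1.52 and 0.335. In aged CR mice 5, 6 and 7 adipocyte markers were at 0.170, 1.06 and 0.995 and muscle markers at 0.601, -1.10 and 1.28. The part of either set in the members' values was not tested. Erythroid markers stood at 0.217 in mouse 3, with 10 of 12 above their own mean, and at -0.098 and -0.101 in mice 1 and 2, with 3 of 12 above in each. They were at 0.068, -0.096 and -0.120 in young AL mice 9, 10 and 11, at 0.103, 0.189 and -0.257 in aged AL mice 13, 14 and 15, and at -0.237, 0.203 and 0.130 in aged CR mice 5, 6 and 7. Their sign was thus opposite to that of the members in every mouse except aged AL mouse 15, and their part in the members' values was not tested. Over all tested genes young CR mouse 3 differed from the rest of its group by a root mean square of 0.299 (log2). This lay within the range of the young mice (0.243 to 0.301), so that it was not set apart there. Aged AL mouse 14 (0.435) and aged CR mouse 5 (0.378) had the largest such values, with aged AL mouse 15 (0.362) close to mouse 5.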

How the data were processed

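RNA from the tibia of 12 mice was sequenced as stranded poly(A) libraries. Per the labels and the study's methods, the authors trimmed reads with Trim Galore 0.5.0, aligned them with STAR 2.6.1 to mm10, assembled and quantified transcripts with StringTie 2.1.3b, and deposited FPKM values after quantile normalization. How the 4 technical repeats of a mouse were joined, and which strand setting was used for quantification, is not stated in any source used. At any 1 rank the values of the 12 mice lay within 0.00936 FPKM, so that total levels were equal by construction and a change shared by all genes cannot be seen. The table has no counts, so the depth is unknown, and no counting interval is given. All 12 value columns were used, and 0 were left unmapped.

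Here, log2(FPKM + 1) was fitted with limma 3.58.1 in R 4.3.3 as 4 group means with a trended variance, for genes averaging 1 FPKM or more, and p-values were adjusted over 13590 genes by Benjamini-Hochberg. A fold change on this scale understates that of low genes. Whether technical steps were shared within groups is not stated, and p-values measure the spread between these mice. The procedure was tested on simulated data with 200 changed genes. Group summaries are descriptions without a test. Positions come from GENCODE M21, transcript length is the median over a gene's protein-coding transcripts, and promoters come from RefSeq.

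Alternatives were a pseudocount of 0.1, no filter, a minimum of 5 FPKM, a weight for the quality of each mouse, median-ratio size factors, leaving out single mice, a fit of the compared groups alone, the study's Welch test on FPKM, and, chosen after seeing the data, both aged mice that stood apart left out. Members and gene lists were chosen with earlier results of these data known. Members named with values were those with an adjusted p under 0.05 (none), the 4 smallest p per subunit in each comparison (2 for the interaction), the 4 highest and 3 lowest levels per subunit, and Mrps5, Mrps12, Mrpl12, Mrpl41, Mrpl44, Mrpl58, Mrps18a, Mrps18b, Mrps18c, Mrps30 and Mrps36. Of other lists up to 3 genes with the smallest p were named. Slc5a3, Nrf1, Ppargc1a and Ppargc1b were named for their link to a member or motif, after their values were seen.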

Additional observations from a re-analysis of the deposited data

How the results depend on the processing

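With a quality weight per mouse, 1 member (Mrps6) was called for CR in young mice, 3 for CR over both ages and 23 for age, where the median was -0.16; limma then called 304, 923 and 1798 of all tested genes. Leaving out 1 mouse at a time gave a median of 0.046 to 0.17 for CR in young mice, 0 to 1 members called for CR over both ages and 0 to 3 for age, with each upper value reached without young CR mouse 3. In that fit 16 of 13603 tested genes were called for CR over both ages and 221 for age. Leaving out aged AL mouse 14 and aged CR mouse 5 gave 1 member (Mrpl33) called for age, with 213 of 13583 tested genes called. The cause of these differences was not tested. The alternatives gave 680 values for 36 pairs of a member and a comparison, which were picked for their small p in these data. Of these values, 665 had the main direction and side of the threshold, the other 15 had the main direction and passed the threshold, and 0 changed sign. Because of that choice, and because the fits share most mice, a kept sign was likely beforehand and is no evidence of robustness. For CR in aged mice, the median over the members was 0.02, and leaving out 1 mouse at a time gave -0.03 to 0.05. The study's own rule, a Welch test on FPKM at an unadjusted p under 0.05, gave 4 members higher and 0 lower with CR in young mice, of 608 and 567 tested genes, and 2 higher and 1 lower in aged mice, of 273 and 214. With size factors, 9 members instead of 15 were lower for age at an unadjusted p under 0.05, and 1096 instead of 1326 tested genes. No paired analysis was possible because the replicate numbers shared in the labels are technical repeats of 1 mouse, and mouse numbers are not shared between groups. The table holds no counts, so what depth limits is unknown.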

Other observations

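The 4 pseudogene rows that the name pattern left out had levels like those of the members. Mrpl23-ps1 was at a mean of 35.3 FPKM, against 7.54 FPKM for Mrpl23 itself, and had its highest values, 44.9 and 42.6 FPKM, in young CR mice 1 and 2, against 30.9 to 36.3 FPKM in the other 10 mice. Mrps36-ps1 and Mrps36-ps2 were at 20.0 and 8.54 FPKM, against 10.98 FPKM for Mrps36, and Mrpl48-ps was at 12.8 FPKM, against 8.91 FPKM for Mrpl48. How reads were divided between these rows and the genes they are named after was not tested.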
